A study of Mus musculus with 15 samples.

Results

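The genes described here are 8 genes of brown fat heat production, *Ucp1*, *Cidea*, *Dio2*, *Ppargc1a*, *Elovl3*, *Prdm16*, *Adrb3* and *Ppara*, read as messenger RNA in whole mouse aortas. They were chosen by name, and all 8 were found among the 24982 gene symbols of the count files and had enough reads to be tested. The 15 libraries came from the aortas of wild-type male C57BL/6 mice, aged 10 months, in 3 groups of 5. The control mice had a sham operation, the orchiectomized mice had their testes removed, and the DHT mice were orchiectomized and given a pellet of dihydrotestosterone, an androgen that is not converted to oestrogen. After 2 weeks of recovery every mouse, controls included, received Aldo-salt, that is aldosterone at 200 µg/kg per day from an implanted minipump with 0.9% NaCl and 0.2% KCl in the drinking water, until the aortas were taken at day 7. No aorta without Aldo-salt is among the libraries, so the comparisons describe androgen status within Aldo-salt only. The aortas were cleaned after harvest and the fat was not dissected as a tissue of its own, so each library mixes vessel wall with whatever perivascular fat stayed attached.

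Brown adipocytes burn fatty acids to make heat. Noradrenaline from sympathetic nerves acts on the beta-3 receptor (*Adrb3*), raises cyclic AMP, releases fatty acids from lipid droplets and switches on transcription of *Ucp1*, the mitochondrial carrier that lets protons leak back without making ATP. The same signal raises *Dio2*, the deiodinase that turns thyroxine into the active hormone T3 inside the cell, and *Ppargc1a*, a coactivator of mitochondrial genes, while *Prdm16* is a transcriptional regulator that keeps the brown adipocyte identity and *Ppara* is a nuclear receptor for fatty acids. *Elovl3*, an enzyme that elongates fatty acids, and *Cidea*, a lipid droplet protein, are abundant in active brown fat. The fat around the rodent thoracic aorta is known to resemble brown fat.

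The 250 bases ahead of the RefSeq start site (GRCm38.p6) are shown for *Ucp1*, *Dio2* and *Ppargc1a*, the cyclic AMP targets among the 8. Each is written 5′ to 3′ on the strand of the gene. Capitals mark TGACG, the core of the cyclic AMP response element, on either strand (CGTCA when read on the other), the nuclear receptor element AGGTCA on either strand and the TATA box TATAAA on either strand. The windows lie at chr8:83290098-83290347 (plus strand) for *Ucp1*, chr12:90739039-90739288 (minus strand) for *Dio2* and chr5:51567726-51567975 (minus strand) for *Ppargc1a*.
Ucp1: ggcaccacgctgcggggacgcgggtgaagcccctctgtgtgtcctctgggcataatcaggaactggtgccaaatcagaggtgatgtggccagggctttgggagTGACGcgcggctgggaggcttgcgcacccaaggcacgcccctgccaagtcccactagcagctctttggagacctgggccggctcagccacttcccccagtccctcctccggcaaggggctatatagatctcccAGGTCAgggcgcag
Dio2: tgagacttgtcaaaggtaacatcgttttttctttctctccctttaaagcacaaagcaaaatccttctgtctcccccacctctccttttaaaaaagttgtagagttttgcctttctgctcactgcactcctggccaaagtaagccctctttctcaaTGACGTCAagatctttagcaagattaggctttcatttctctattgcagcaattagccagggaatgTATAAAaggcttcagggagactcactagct
Ppargc1a: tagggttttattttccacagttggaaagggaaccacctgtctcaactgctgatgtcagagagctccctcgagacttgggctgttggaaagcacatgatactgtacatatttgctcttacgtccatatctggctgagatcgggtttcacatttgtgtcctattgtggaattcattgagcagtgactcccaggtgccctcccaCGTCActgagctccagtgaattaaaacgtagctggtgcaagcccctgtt
The *Dio2* window held the full palindrome TGACGTCA, in which TGACG on one strand overlaps TGACG on the other, between 95 and 88 bases ahead of the start, and a TATA box that began 30 bases ahead of it. Of the 32851 promoters of the RefSeq table, 1.55% held TGACGTCA in the same 250 bases, 17.8% held TGACG on either strand, 14% held AGGTCA and 12.4% held TATAAA. The *Ucp1* window held 1 TGACG, 147 bases ahead of the start, and 1 AGGTCA, 14 bases ahead of it. The *Ppargc1a* window held 1 TGACG on the other strand, 49 bases ahead of the start. TGTTCT, an element that steroid receptors such as the androgen receptor can bind, was in none of the 5 member windows that the table holds and in 16.1% of all promoters. These are matches of letters and not measured binding, and a link to the levels of the genes was not tested. The *Dio2* start in RefSeq lies 600 bases upstream of the gene start in the GENCODE annotation, so the window belongs to the RefSeq start alone. The table held windows for 5 of the 8 genes, the other two being *Prdm16* and *Ppara*.

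The libraries held 8268957 to 13816864 counts on genes (median 10930079), and levels are given as CPM, the counts of a gene relative to the library size after scaling by the trimmed mean of M values (TMM), with the SD over 5 mice. Of the 24982 symbols, 14121 had enough counts to be tested. Differences between groups were tested with the quasi-likelihood test of edgeR in 1 fit of all 15 libraries, and a gene is called higher or lower at an unadjusted P under 0.01. The Benjamini-Hochberg (BH) adjusted P over all tested genes is given beside it, so a call can stand beside a larger adjusted P. The 3 comparisons share mice, each group standing in 2 of them, so they are not independent of each other. Adipocyte genes were present in every library, since the 13 genes of an adipocyte list summed to between 4327 and 9941 CPM and *Adipoq*, the adipocyte hormone, was at 380.7 ± 126.7, 355.3 ± 89.5 and 300.5 ± 70.6 CPM in the control, orchiectomized and DHT aortas. *Adipoq* was not called and its log2 fold change for DHT against orchiectomized, -0.24, had the opposite sign to the median of the adipocyte list, 0.25. *Zic1* and *Lhx8*, markers of the brown fat between the shoulder blades, were at 0.247 CPM or less and 1.85 CPM or less in every library. A lower level of a gene in these aortas cannot be told apart between fewer cells of a type and less RNA per cell.

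Per kilobase of exon, *Ucp1* was the most abundant of the 8, at 1102 ± 567.6 CPM per kb in the control, 557 ± 202.6 in the orchiectomized and 983.9 ± 511.8 in the DHT aortas. It ranked between 4 and 115 in a library among the 24445 symbols that matched 1 GENCODE gene. *Cidea* followed at 534.9 ± 242.5 CPM per kb in the controls and stood below *Ucp1* in 15 of 15 libraries. *Elovl3* (120.2 ± 80.0 CPM per kb in the controls) stood below *Cidea* in all 15 and above *Adrb3* (52.5 ± 21.7) in 14. *Dio2* (29.1 ± 6.74) and *Ppara* (28.3 ± 18.3) could not be ordered, because *Dio2* was the higher of the pair in 5 of 15 libraries. By their control means *Prdm16* (11.5 ± 2.03) and *Ppargc1a* (2.91 ± 1.499 CPM per kb) were the lowest, and *Prdm16* stood above *Ppargc1a* in 15 of 15 libraries and *Ppara* above *Prdm16* in 12. In the DHT aortas *Dio2* (11.02 ± 2.74 CPM per kb) had a lower mean than *Prdm16* (13.8 ± 3.32).

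*Ucp1* (mm10 chromosome 8, 83290352 to 83298452, plus strand) varied 4.29-fold among the control aortas alone. Its CPM were 2663, 1242, 2831, 660.5 and 1621 in controls, 1179, 488.4, 676.1, 1276 and 936.7 after orchiectomy and 868.4, 880.5, 1396, 2812 and 2091 with DHT. All 5 orchiectomized aortas were below the control median, but the lowest control aorta was below 4 of them, and 3 of the DHT aortas were above every orchiectomized one. The group means were 1803 ± 928.5, 911.3 ± 331.6 and 1609 ± 837.2 CPM. The log2 fold change was -0.98 (SE 0.42, edgeR BH adjusted P = 0.381) for orchiectomized against control, 0.82 (SE 0.42, edgeR BH adjusted P = 0.274) for DHT against orchiectomized and -0.16 (SE 0.41, edgeR BH adjusted P = 0.902) for DHT against control, and none was called. Without control replicate 4, the control with the least *Ucp1*, the first value was -1.20 and was called (edgeR BH adjusted P = 0.193), in a fit that called 4.91% of all tested genes for this comparison in place of 3.22%. With each library left out in turn, *Ucp1* was called for this comparison in 1 of 15 fits, with values from -1.20 to -0.80.

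*Elovl3* (chromosome 19, 46131897 to 46135694, plus strand) was the member called after orchiectomy. It read 368.5, 151, 439.6, 69.6 and 158.3 CPM in the control, 138.7, 43, 41.6, 97.4 and 100.5 CPM in the orchiectomized and 111.5, 132.7, 254.3, 343.4 and 217.8 CPM in the DHT aortas. It was below every DHT aorta in 4 of the 5 orchiectomized aortas, whereas the control group spanned 6.31-fold and reached into the orchiectomized range with 1 mouse. *Elovl3* fell from 237.4 ± 158.1 CPM in the controls to 84.2 ± 41.6 CPM after orchiectomy, a log2 fold change of -1.50 (SE 0.49, edgeR BH adjusted P = 0.301). In the DHT mice it was at 211.9 ± 94.2 CPM, a log2 fold change of 1.33 over the orchiectomized mice (SE 0.48, edgeR BH adjusted P = 0.124) that did not pass, and of -0.16 (SE 0.48) against the controls. The call after orchiectomy was lost when control replicate 1 or 3, or orchiectomized replicate 2, 3, 4 or 5, was left out, with log2 fold changes between -1.58 and -1.19 and edgeR BH adjusted P between 0.288 and 0.62, and the sign was the same in every case.

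*Cidea* (chromosome 18, 67343604 to 67367785, plus strand) had the same order of group means without a call. It was at 839, 422.2, 836, 220.5 and 664.2 CPM in the control, 511, 288.9, 247.5, 438.3 and 398.8 CPM in the orchiectomized and 327.7, 365.2, 724.9, 796.8 and 634.2 CPM in the DHT mice. The groups overlapped in each comparison, and the log2 fold changes were -0.66 (SE 0.35, edgeR BH adjusted P = 0.455) for orchiectomized against control and 0.60 (SE 0.35, edgeR BH adjusted P = 0.345) for DHT against orchiectomized.

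*Adrb3*, the receptor at the head of the pathway (chromosome 8, 27225776 to 27250616, minus strand), was at 197.1, 178.4, 269.3, 65.4 and 175.3 CPM in the control, 82.3, 103.2, 61.3, 133.5 and 106.8 CPM in the orchiectomized and 80, 67.1, 155.6, 216.1 and 169.9 CPM in the DHT aortas. All controls but 1 were above the highest orchiectomized aorta. The log2 fold change for orchiectomized against control was -0.86 (SE 0.36, edgeR BH adjusted P = 0.375). It was called in 1 of the 15 fits with 1 library left out, which gave values from -1.07 to -0.69. That fit left out control replicate 4, the control with the least *Adrb3*, and gave -1.07 (edgeR BH adjusted P = 0.173). In it 4.91% of all tested genes were called for this comparison. DHT against orchiectomized gave 0.50 (SE 0.36, edgeR BH adjusted P = 0.453). An annotated antisense gene, *Gm45470*, covers 24.9% of the exon length of *Adrb3* on the other strand and has no row in the files, and no source used here states whether counting used strand, so reads from the 2 genes cannot be told apart.

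Among the regulators, *Ppara* (chromosome 15, 85734983 to 85802819, plus strand) and *Ppargc1a* (chromosome 5, 51454250 to 51567726, minus strand) varied widely among the control aortas (5.98- and 3.96-fold) and the DHT aortas (6.01- and 3.41-fold), and less after orchiectomy (2.53- and 1.85-fold). *Ppara* ranged from 33.7 to 201.7 CPM in the control, 43.5 to 110.1 in the orchiectomized and 37 to 222.7 in the DHT aortas, and its log2 fold changes were -0.58 (SE 0.52), 0.31 (SE 0.52) and -0.27 (SE 0.52) in orchiectomized against control, DHT against orchiectomized and DHT against control, none of them called. *Ppargc1a* was low, at 7.93 to 33.9 CPM, and its log2 fold changes were -0.28 (SE 0.40), -0.12 (SE 0.40) and -0.40 (SE 0.40) in the same order. The 3 DHT aortas with the least, at 8.55, 7.93 and 8.46 CPM, lay only slightly below the lowest control, at 8.57 CPM. The other DHT aortas were at 27 and 20.7 CPM.

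*Prdm16* (chromosome 4, 154316125 to 154636873, minus strand) was not called in any comparison. It was at 107.3 ± 18.9 CPM in the control, 104.6 ± 37.6 in the orchiectomized and 128.8 ± 30.9 in the DHT aortas, with single aortas between 84.2 and 135.5, 50 and 137.8, and 89.1 and 164.6 CPM. The groups overlapped, and 3 of the 5 DHT aortas were above every orchiectomized one. The log2 fold changes were -0.04 (SE 0.24), 0.30 (SE 0.24) and 0.26 (SE 0.24), and the smallest edgeR BH adjusted P was 0.513.

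*Dio2* (chromosome 12, 90724552 to 90738438, minus strand) had another order of group means than *Ucp1*. Its CPM were 209.6, 123.1, 160, 143.1 and 209.4 in the control, 101.2, 64.3, 220.6, 147.3 and 93.5 in the orchiectomized and 47.6, 50.4, 65.9, 87 and 69.5 in the DHT mice. All 5 DHT aortas were below all 5 control aortas, and 4 of the 5 orchiectomized aortas were above every DHT aorta, while the orchiectomized mice spanned 3.43-fold and overlapped both groups. *Dio2* fell from 169 ± 39.2 CPM in the controls to 64.1 ± 15.9 CPM with DHT, a log2 fold change of -1.40 (SE 0.29, edgeR BH adjusted P = 0.0548). It also fell from 125.4 ± 61.0 CPM in the orchiectomized mice to the DHT level, by 0.97 on the log2 scale (SE 0.28, edgeR BH adjusted P = 0.0642). Orchiectomized against control gave -0.43 (SE 0.28, edgeR BH adjusted P = 0.542).

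The fall of *Dio2* against the controls was called with any of the 15 libraries left out, with log2 fold changes from -1.54 to -1.31 and edgeR BH adjusted P from 0.0268 to 0.17. The fall against the orchiectomized mice was lost when orchiectomized replicate 3 or 4, or DHT replicate 1 or 2, was absent from the fit, and ranged from -1.13 to -0.65 over all 15. Without orchiectomized replicate 3, the aorta of that group with the most *Dio2*, orchiectomized against control was called at -0.76 (edgeR BH adjusted P = 0.281). By DESeq2 the values were -1.40 (adjusted P = 0.000517) against the controls and -0.94 (adjusted P = 0.0208) against the orchiectomized mice.

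**Figure D1:**
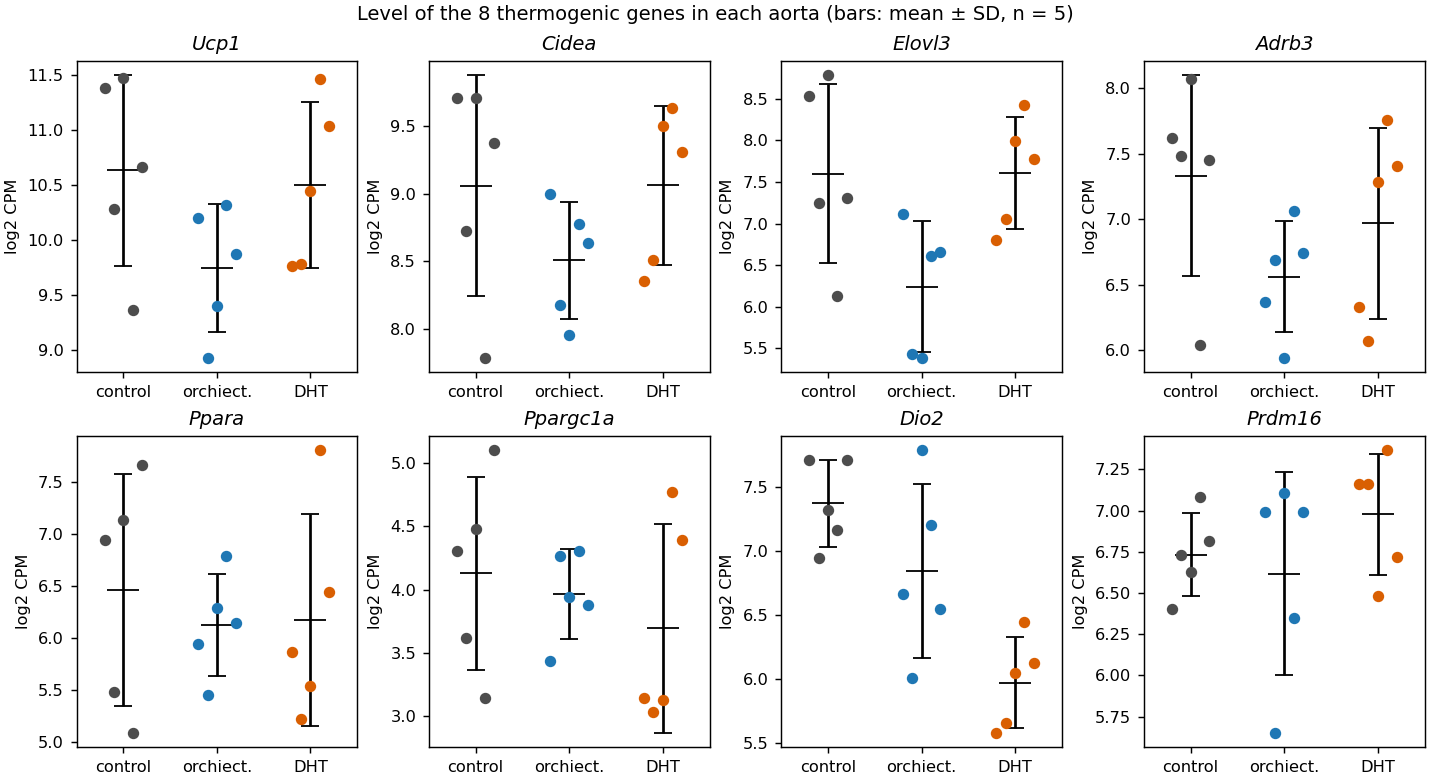
Log2 CPM of each gene (y axis, one panel per gene with its own range) in the 5 control, 5 orchiectomized and 5 DHT aortas (x axis, 1 point per aorta), with bars for the mean ± SD of the log2 values. *Ucp1*, *Cidea*, *Elovl3* and *Adrb3* have their lowest group mean after orchiectomy with overlapping groups, and the 5 DHT points of *Dio2* lie under the 5 control points.

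The counts of called members are given beside those over all tested genes. For orchiectomized against control 1 of 8 was called lower (*Elovl3*), where 1.13% of the 14121 genes were called lower and 2.08% higher, and all 8 log2 fold changes were below 0 with a median of -0.62 (0.04 over all tested genes). For DHT against orchiectomized 1 of 8 was called lower (*Dio2*) and 0 higher, where 7.27% of genes were called lower and 2.46% higher, and 6 of the 8 log2 fold changes were above 0 with a median of 0.40 (-0.02 over all genes). For DHT against control 1 of 8 was called lower (*Dio2*), where 2.01% were called lower and 1.52% higher, and the median was -0.22 (-0.003 over all genes). The 13 adipocyte genes had medians of -0.37 with 10 below 0, 0.25 with 9 above 0 and -0.23 with 10 below 0 in the same order of comparisons, the same signs as the medians of the members. In edgeR 0 members passed a BH adjusted P under 0.05 in any of these comparisons, where 0, 666 and 37 genes of all tested did, that is 0%, 4.72% and 0.262%. An unadjusted P under 0.05 was reached by 3, 2 and 1 of the 8 members, and by 12%, 21.2% and 11.8% of all tested genes. The 2 groups did not overlap in 0 of 8 members for orchiectomized against control (1.51% of all tested genes), 0 of 8 for DHT against orchiectomized (6.43%) and 1 of 8, *Dio2*, for DHT against control (3.58%).

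**Figure D2:**
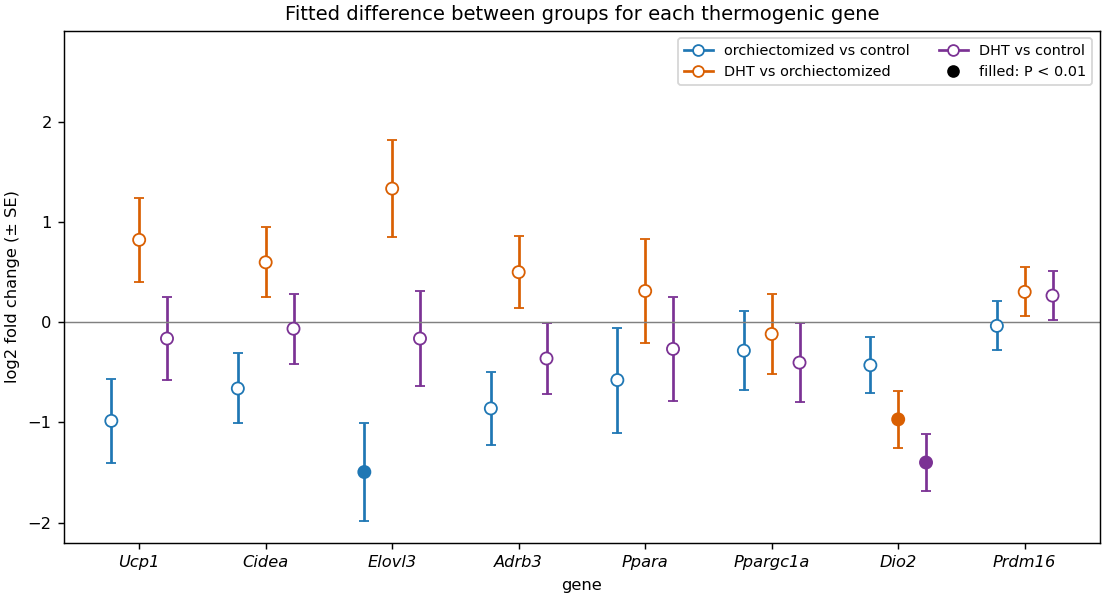
Fitted log2 fold change (y axis) with its standard error for each of the 8 genes (x axis) in the 3 comparisons, drawn filled where the unadjusted P was under 0.01. The filled points are *Elovl3* at -1.50 for orchiectomized against control and *Dio2* at -0.97 and -1.40 for DHT against orchiectomized and DHT against control.

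Across the 15 aortas, *Ucp1*, *Cidea*, *Elovl3* and *Adrb3* varied as a block that *Dio2* and *Prdm16* did not join. Pearson's r between log2 CPM values was 0.93 for *Ucp1* and *Cidea*, 0.94 for *Ucp1* and *Elovl3* and 0.85 for *Ucp1* and *Adrb3* (n = 15 aortas, all groups together). Within groups, after each group mean was subtracted, these were 0.92, 0.93 and 0.83. *Ppargc1a* and *Ppara* formed a closer pair with each other (r = 0.86) than with *Ucp1* (0.53 and 0.74). *Dio2* had r = 0.26 with *Ucp1* over all aortas and 0.49 within groups, and *Prdm16* had 0.09 and -0.03. Without orchiectomized replicate 2 they were 0.15 for *Dio2* and -0.40 for *Prdm16* over the other aortas. These coefficients describe libraries that also differed in their level of adipocyte genes.

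The same split was seen against 39 tested genes of other brown fat functions, none of them a member. The mean log2 CPM of those genes had r = 0.91 with *Ucp1*, 0.94 with *Cidea*, 0.91 with *Adrb3*, 0.82 with *Elovl3*, 0.80 with *Ppara* and 0.74 with *Ppargc1a*, but 0.24 with *Dio2* and -0.21 with *Prdm16* (n = 15). Without orchiectomized replicate 2 the coefficient of *Ucp1* was 0.98, that of *Dio2* 0.22 and that of *Prdm16* -0.41. That aorta had the least *Ucp1* of all 15 and summed to 8831 CPM over 12 heart muscle genes, which summed to between 99.5 and 1800 CPM in the other aortas.

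**Figure D3:**
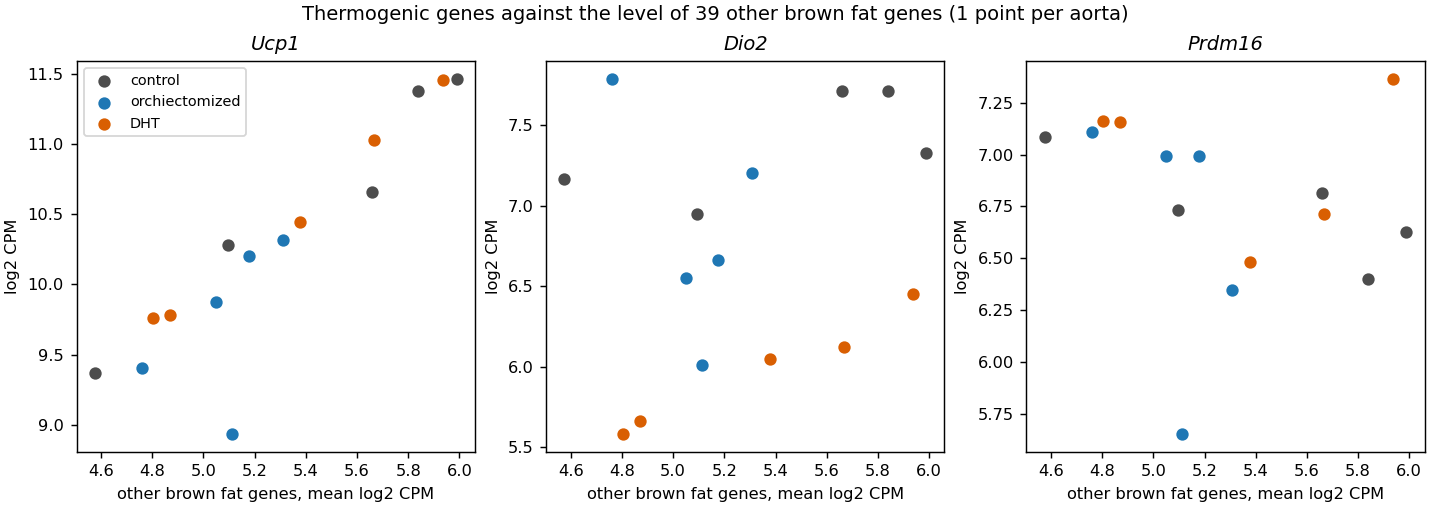
Log2 CPM of *Ucp1*, *Dio2* and *Prdm16* (y axes) against the mean log2 CPM of 39 other brown fat genes (x axis), 1 point per aorta coloured by group. *Ucp1* rises along the axis with r = 0.91, whereas *Dio2* (r = 0.24) has its DHT points in a band beneath the control points at every level of brown fat genes.

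The tested genes nearest to *Ucp1* over the 15 aortas were *Letm1* (r = 0.99), *Letmd1* (0.98), *Gpd1* (0.98), *Kng2* (0.98) and *Mgll* (0.98). *Letm1* is a mitochondrial inner membrane protein, *Gpd1* makes glycerol 3-phosphate and *Mgll* splits monoacylglycerol, the last step of lipolysis. The genes nearest to the mean of the 8 members were *Pank1* (0.99), an enzyme of coenzyme A synthesis, *Sh2b2*, *Gys2*, *Prkar2b* and *Ogdh* (0.98 each). Among the genes nearest to *Dio2*, listed after their values were seen, were *Pcsk6* (0.91), *Fastkd5* (0.90), *Sppl2a* (0.89) and *Prex2* (0.86). Among those nearest to *Prdm16*, also listed afterwards, were *Itga9* (0.95), *Klf8* (0.94), *Rbfox2* (0.92) and *Bcr* (0.91).

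Because the level of adipocyte genes differed between aortas, the members were also fitted with the mean log2 CPM of the 13 adipocyte genes as a covariate. With it, *Dio2* remained lower with DHT, at -1.34 against the controls (edgeR BH adjusted P = 0.0697) and -1.03 against the orchiectomized mice (edgeR BH adjusted P = 0.0533). *Elovl3* was called higher with DHT than after orchiectomy, at 1.07 (edgeR BH adjusted P = 0.0759), and was no longer called for orchiectomized against control, at -0.78 (edgeR BH adjusted P = 0.57). The *Ucp1* difference for orchiectomized against control shrank from -0.98 to -0.38 (SE 0.29), where *Ucp1* had r = 0.79 with the covariate over the 15 aortas. In this fit 0, 2 and 1 of the 8 genes were called in orchiectomized against control, DHT against orchiectomized and DHT against control, where 1.93%, 10.9% and 4.19% of all tested genes were called in either direction.

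With the 39 other brown fat genes as the covariate, a choice made after seeing the data, the calls fell on the same members. *Dio2* was at -1.38 for DHT against control (edgeR BH adjusted P = 0.0395) and -1.10 for DHT against orchiectomized (edgeR BH adjusted P = 0.0437), and *Elovl3* at 0.88 for DHT against orchiectomized (edgeR BH adjusted P = 0.0705). *Ucp1* was then at -0.32 (SE 0.19), 0.33 (SE 0.18) and 0.01 (SE 0.18) in the 3 comparisons. As *Ucp1* had r = 0.91 with this covariate, a change of *Ucp1* can hardly be told apart from a change of the covariate. Of all tested genes 2.67%, 10.8% and 5.44% were called in either direction in orchiectomized against control, DHT against orchiectomized and DHT against control. On the log2 scale relative to those brown fat genes, *Dio2* lay between 1.34 and 2.59 in the controls, between 0.90 and 3.03 after orchiectomy and between 0.46 and 0.79 with DHT, so that the DHT aortas were below every other aorta.

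The smooth muscle genes of the vessel wall were examined in the same way. The 8 smooth muscle genes summed to 15340 to 22010 CPM in the control, 12050 to 22080 in the orchiectomized and 21490 to 26590 in the DHT aortas, with 0 of 8 called and all 8 log2 fold changes above 0 for DHT against control (0.30 to 0.80) and DHT against orchiectomized (0.18 to 0.53). The count called was 3 without orchiectomized replicate 2 for DHT against control and 3 without orchiectomized replicate 1 for DHT against orchiectomized. *Dio2* had r = -0.64 with their mean log2 CPM over all 15 aortas, -0.88 without orchiectomized replicate 2 and -0.21 within groups. Over all aortas and within groups, r with the same mean was -0.68 and -0.78 for *Ppargc1a*, -0.41 and -0.58 for *Ppara*. It was 0.54 and 0.46 for *Prdm16*, -0.20 and -0.40 for *Adrb3*, 0.02 and -0.25 for *Ucp1*, 0.02 and -0.25 for *Cidea*, 0.23 and -0.07 for *Elovl3*. With that mean as a covariate, chosen after seeing the data, *Dio2* was at -1.09 (SE 0.41, edgeR BH adjusted P = 0.289) for DHT against control and -0.67 (SE 0.40, edgeR BH adjusted P = 0.369) for DHT against orchiectomized, and neither was called, where 3.95% and 6.56% of all tested genes were called in either direction. In the same fit, for DHT against orchiectomized, *Ppargc1a* was at 1.03 (edgeR BH adjusted P = 0.157) and *Ppara* at 1.46 (edgeR BH adjusted P = 0.185). Neither was called, and without the covariate they were at -0.12 and 0.31. The smooth muscle level of the 5 DHT aortas was at or above that of nearly every other aorta, so DHT and smooth muscle level can hardly be told apart in this fit.

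The other genes of the brown fat programme were read from a list of 44, of which 39 were tested. For orchiectomized against control 2 were called lower and 0 higher, where 1.13% and 2.08% of all tested genes were, with a median log2 fold change of -0.54 and 29 of 39 below 0. *Acot11*, an acyl-CoA thioesterase induced by cold in brown fat, fell from 349.3 ± 207.1 to 132 ± 47.4 CPM (log2 fold change -1.40, SE 0.41, edgeR BH adjusted P = 0.28). *Bmp8b*, a secreted factor of brown fat, was called lower at very low levels of 2.19 ± 3.19 and 0.246 ± 0.129 CPM, a log2 fold change of -3.05 that was -1.66 and not called without control replicate 3. For DHT against orchiectomized the median was 0.30 and 1 was called higher (2.46% of all tested genes), *P2rx5*, a purinergic receptor, which rose from 37.3 ± 6.73 to 56.8 ± 11.8 CPM (log2 fold change 0.61, SE 0.19, edgeR BH adjusted P = 0.0763). For DHT against control 1 was called higher (1.52% of all tested genes), *Ckb*, the creatine kinase of the creatine cycle. It rose from 190.3 ± 29.3 to 276.1 ± 42.0 CPM (0.54, SE 0.17, edgeR BH adjusted P = 0.25). After orchiectomy *Ckb* was at 238.3 ± 60.2 CPM, a mean above that of the controls, unlike most genes of the list. Which cells of the aorta its RNA came from was not tested. *Cpt1b*, the muscle and brown fat carnitine palmitoyltransferase, was at 0.656 CPM or less in every library, but an annotated gene on the same strand, *Gm44502*, covers 81.4% of its exon length, so its level is uncertain. Without control replicate 4 the count for orchiectomized against control was 12 of the list in place of 2, in a fit that called 4.91% of all tested genes in place of 3.22%. With each of the 15 libraries left out in turn, *Acot11* was called in 14 cases, *Bmp8b* in 8, *P2rx5* in 11 and *Ckb* in 10. *Acot11* was lost without control replicate 3.

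Fatty acid oxidation and the adrenergic and lipolytic genes also had medians below 0 after orchiectomy and above 0 with DHT. For orchiectomized against control the medians were -0.56 over 26 oxidation genes and -0.41 over 19 adrenergic and lipolytic genes, and for DHT against orchiectomized they were 0.21 and 0.24. Of the 26 oxidation genes 0 were called lower and 1 higher for orchiectomized against control, where 1.13% and 2.08% of all tested genes were. The 1 called higher was *Acot1* (1.49, SE 0.47, edgeR BH adjusted P = 0.294). Its highest level, 36.1 CPM, was in orchiectomized replicate 2, the aorta rich in heart muscle genes, against 5.45 to 12.2 CPM in the other orchiectomized aortas. Without that aorta the *Acot1* value was 0.79 and was not called. *Vnn1*, a pantetheinase, was called lower with DHT than after orchiectomy (-0.99, SE 0.23, edgeR BH adjusted P = 0.025) and than in the controls (-0.68, SE 0.23, edgeR BH adjusted P = 0.275). *Acot1* was called in 10 of the 15 fits with 1 library left out, and *Vnn1* in 15 against the orchiectomized mice and in 5 against the controls. Without control replicate 4 the count of oxidation genes called for orchiectomized against control was 9 (4.91% of all tested genes in place of 3.22%). It was 0 without control replicate 2 (2.51%), 3 (1.73%) or 5 (2.45%) or orchiectomized replicate 2 (1.79%).

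Among the receptors that share the signal with *Adrb3*, the alpha-1A receptor *Adra1a* fell from 40.8 ± 14.7 CPM in the controls to 17.6 ± 5.53 CPM after orchiectomy (-1.21, SE 0.37, edgeR BH adjusted P = 0.288). *Mapk14*, a kinase downstream of the beta receptors, was called lower by a smaller amount (-0.27, SE 0.09, edgeR BH adjusted P = 0.297). *Adrb1* was at 15.7 ± 7.90, 10.3 ± 6.62 and 14.6 ± 7.08 CPM in the 3 groups and was not called. The 2 calls among the 19 genes of this list for orchiectomized against control were *Adra1a* and *Mapk14*, both lower. Of all tested genes 3.22% were called there in either direction, 1.13% lower. The number called in the list was 8 without control replicate 4 (4.91% of all tested genes) and 4 without orchiectomized replicate 4 (3.45%). It was 0 without control replicate 3 (1.73%) or 5 (2.45%) or orchiectomized replicate 1 (3.26%) or 2 (1.79%).

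The thyroid hormone genes, which stand next to *Dio2* in function, were tested in 8 of 10. Of the 8, 1 was called higher for orchiectomized against control, 1 higher for DHT against orchiectomized and 0 for DHT against control, where 2.08%, 2.46% and 1.52% of all tested genes were called higher. The receptors *Thra* and *Thrb* were at 288.3 ± 22.01 and 62.9 ± 10.4 CPM in the controls and at 343.4 ± 12.8 and 66.7 ± 8.21 CPM with DHT, with log2 fold changes of 0.25 (SE 0.13, edgeR BH adjusted P = 0.476) and 0.08 (SE 0.20, edgeR BH adjusted P = 0.894). *Thrsp*, a thyroid hormone responsive gene of lipid synthesis, was called higher with DHT than after orchiectomy, at 1265 ± 445.8 against 559.4 ± 223 CPM (1.18, SE 0.40, edgeR BH adjusted P = 0.102). *Dio1*, the other activating deiodinase, was at 1.77 CPM or less in every library. The list also holds *Nr1d1*, called higher after orchiectomy (0.64, SE 0.18, edgeR BH adjusted P = 0.28), which is equally a gene of the circadian clock. *Thrsp* was called in 6 and *Nr1d1* in 12 of the 15 fits with 1 library left out.

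**Figure D4:**
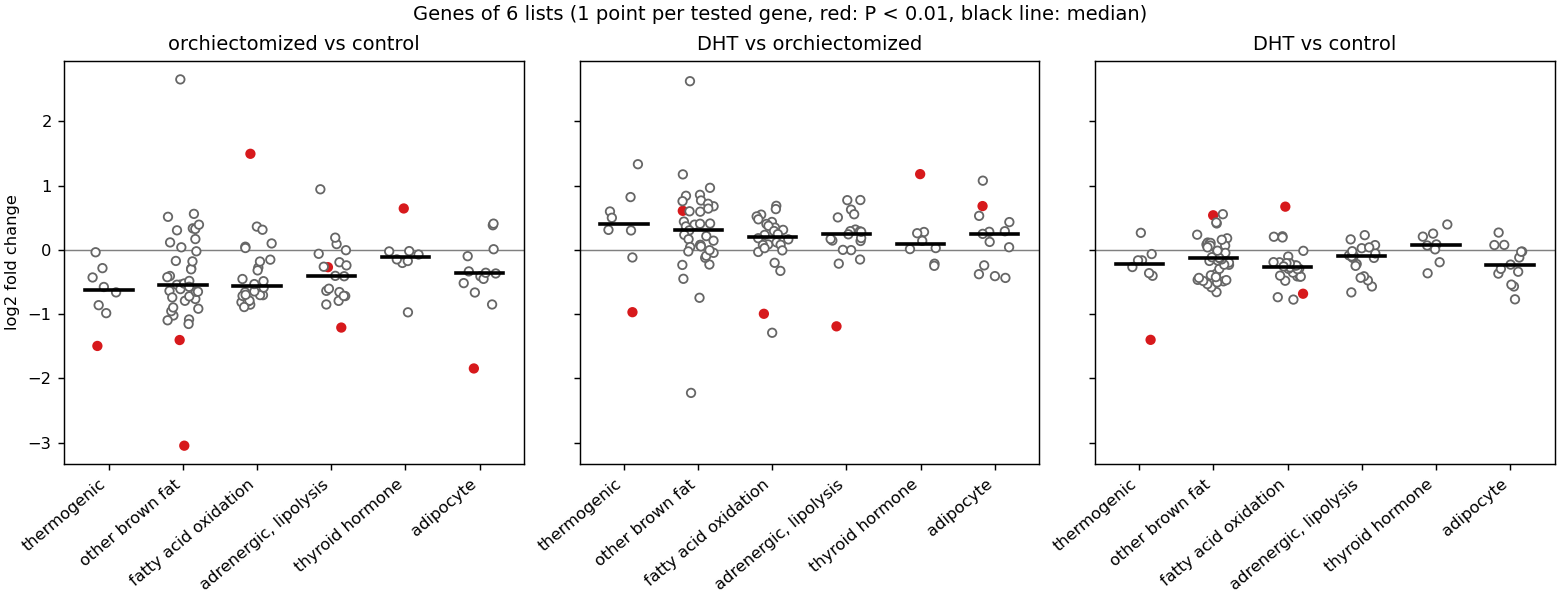
Log2 fold change (y axis) of each tested gene of 6 lists (x axis) in the 3 comparisons, with genes at P under 0.01 in red and a black line at the median of each list. The medians of the thermogenic genes and the other brown fat genes are -0.62 and -0.54 for orchiectomized against control and 0.40 and 0.30 for DHT against orchiectomized, and *Dio2* is the red thermogenic gene at -1.40 for DHT against control.

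Other genes moved with the groups beside the members, and their part in the results was not tested except where a fit is given. Their counts stand beside 2.08% of all tested genes called higher and 1.13% lower for orchiectomized against control, 2.46% and 7.27% for DHT against orchiectomized and 1.52% and 2.01% for DHT against control. Of the 13 adipocyte genes, *Lep* (leptin) was called lower after orchiectomy (-1.84, SE 0.52, edgeR BH adjusted P = 0.268) and *Plin4*, a lipid droplet coat protein, higher with DHT than after orchiectomy (0.68, SE 0.15, edgeR BH adjusted P = 0.0245). Of 15 clock genes, 7 were called higher and 2 lower for orchiectomized against control, and 5 higher and 1 lower for DHT against control, led by *Dbp* at 2.19 and 1.79 and with *Arntl* at -0.74 and -0.48. Genes of the clock and several of the fat genes here are known to cycle over the day, and the hour of harvest is not given in the sources used here. Skeletal muscle genes summed to 49.8 to 620.3 CPM in the control, 11.96 to 217 CPM in the orchiectomized and 100.9 to 579.2 CPM in the DHT aortas, so that the control range covered that of DHT. Of the 12, 3 were called lower for orchiectomized against control, 7 higher for DHT against orchiectomized and 1 higher for DHT against control. With 1 library left out the first count ran from 0 (without control replicate 1 or 4 or orchiectomized replicate 3 or 4) to 5 (without control replicate 5) and the second from 5 to 8. B cell genes summed to 2.65 to 10.98 CPM in the control and DHT aortas and to 6.35 to 155.8 CPM after orchiectomy, the highest again being orchiectomized replicate 2. With that replicate left out, *Elovl3* was at -1.34 (edgeR BH adjusted P = 0.613) for orchiectomized against control and no member was called there, and with the heart muscle genes as a covariate, chosen after seeing the data, *Dio2* was at -1.29 (edgeR BH adjusted P = 0.0443) for DHT against control and -0.84 (edgeR BH adjusted P = 0.0765), no longer called, for DHT against orchiectomized, where *Elovl3* was called at 1.53 (edgeR BH adjusted P = 0.059). Of 9 white fat genes 2 were called lower after orchiectomy (*Lep* and *Npr3*), and with DHT against orchiectomized *Hoxc8* was called higher and *Nnmt* lower. The first count was 0 without control replicate 5, and the count for DHT against orchiectomized was 0 without orchiectomized replicate 4. Of 6 endothelial genes 3 were called lower with DHT in both of its comparisons. The 7 T cell genes were called higher in 5 after orchiectomy and lower in all 7 with DHT against orchiectomized, and 3 of 7 macrophage genes were called lower in the latter, which became 0 without orchiectomized replicate 3 or 4 and 5 without DHT replicate 2. Genes of sympathetic neurons varied widely in every group, from 138.3 to 1576 CPM in sum with 0 of 10 called, and their mean had r = 0.04 with *Ucp1* and -0.01 with *Dio2* (n = 15).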

How the data were processed

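Poly(A) RNA of 15 aortas was sequenced, 1 library per mouse. The submitters' processing notes name STAR, Cufflinks, DESeq2 and the mm10 genome without versions, and the counting program and annotation are not given in the sources used here. The authors deposited raw counts per gene symbol for each library, and rows for reads on no gene (6.26% to 14.4% of all) or on several genes (1.34% to 1.97%) were left out. Symbols were filtered with filterByExpr (10 counts minimum, about 0.906 CPM in the median library), scaled by TMM and tested with edgeR 4.0.16 under R 4.3.3 in 1 quasi-likelihood fit of the 3 groups. Calls used an unadjusted P under 0.01, as the study did. Log2 CPM used a prior count of 3. Gene lengths and overlaps came from GENCODE vM21, and promoters from RefSeq on GRCm38.p6. DESeq2 1.42.0 and limma 3.58.1 served for alternatives. The scripts were tested on simulated data. Replicate libraries differed by far more than sampling noise (chi-square per degree of freedom 11.7 to 126.3). The members and gene lists were chosen with earlier results of these data known, as was the rule for named genes: the 8 members, the 5 genes most correlated with *Ucp1* and with the members' mean, defining genes of each list and at most 3 called genes per list, direction and comparison, with *Dbp*, *Arntl* and *Adipoq*. Some genes that the rule would name are not reported here.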

Additional observations from a re-analysis of the deposited data

Results flagged for a closer look

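Of 24 sets of 5 values (8 genes in 3 groups), 1 held a library far from the others. *Ppara* read 222.7 CPM in DHT replicate 4, against 86.6 CPM in the next highest DHT aorta, a gap of 0.733 of the whole range of the group. By its construction (a 95% critical value) this criterion sets apart about 1 in 20 such sets by chance. The same aorta had the highest value of its group for all 8 genes, for example *Ucp1* at 2812 CPM, *Cidea* at 796.8 CPM, *Dio2* at 87 CPM and *Prdm16* at 164.6 CPM. It also had the largest share of reads on no gene, 14.4% against at most 10.4% in the other 14 libraries. Without it *Dio2* was still called in both DHT comparisons, and the *Ucp1* value for DHT against orchiectomized was 0.54 in place of 0.82, neither called. Without it the *Ppara* log2 fold change for DHT against orchiectomized was -0.34 in place of 0.31, and neither passed.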

How the results depend on the processing

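The count of members called was 1 in each comparison, where 3.22%, 9.72% and 3.53% of all tested genes were called in either direction. For orchiectomized against control it was 0 with only the 2 groups fitted (2.15% of all tested genes), with a replicate block (2.02%), with voom quality weights (3.26%) and with the adipocyte (1.93%), other brown fat (2.67%) or smooth muscle (3.21%) level as a covariate. With 1 library left out it was 0 to 3, over 1.65% to 4.91% of all tested genes, and the 3 (*Ucp1*, *Elovl3* and *Adrb3*) came without control replicate 4, where the share was 4.91%. For DHT against orchiectomized it was 2, *Dio2* and *Elovl3*, by DESeq2 (12.1%) and with the adipocyte (10.9%) or other brown fat (10.8%) covariate, and 0 with the smooth muscle covariate (6.56%). With 1 library left out it was 0 to 2, over 6.97% to 11% of all tested genes. The 1 member called there was *Elovl3* and not *Dio2* with only the 2 groups fitted (8.01%), with the heart muscle covariate (13.5%) and without DHT replicate 1 (8.44%). For DHT against control it was 0 with the smooth muscle covariate (3.95%) and 1 with any library left out (1.99% to 4.79%). At a BH adjusted P under 0.05 in edgeR it was 0, 0 and 0. The median member log2 fold change for DHT against orchiectomized was 1.03 with the smooth muscle covariate. Leaving out 1 library moved the medians from -0.84 to -0.48, 0.25 to 0.61 and -0.53 to -0.057.

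The sign turned in 41 log2 fold changes, and in none of them was either value called. For orchiectomized against control *Prdm16* was at 0.14 (voom), *Ppargc1a* at 0.271 and 0.265 (adipocyte and other brown fat covariates) and *Ppara* at 0.20 and 0.24 (same covariates). For DHT against orchiectomized *Ppara* was at -0.31 (voom) and -0.345 (other brown fat), and the smooth muscle covariate gave *Prdm16* -0.065 and *Ppargc1a* 1.03. For DHT against control the adipocyte covariate gave *Ucp1* 0.20, *Cidea* 0.30, *Elovl3* 0.30 and *Ppara* 0.25, other brown fat gave *Ucp1* 0.006, *Cidea* 0.15 and *Elovl3* 0.16, heart muscle gave *Elovl3* 0.053, and smooth muscle gave *Ucp1* 0.32, *Cidea* 0.23, *Ppargc1a* 0.80, *Prdm16* -0.13, *Adrb3* 0.16 and *Ppara* 1.15. With 1 library left out, the values that turned ranged for orchiectomized against control from -0.18 to 0.12 (*Prdm16*) and -0.47 to 0.024 (*Ppargc1a*), for DHT against orchiectomized from -0.45 to 0.057 (*Ppargc1a*) and -0.34 to 0.545 (*Ppara*), and for DHT against control from -0.47 to 0.043 (*Ucp1*), -0.28 to 0.095 (*Cidea*), -0.415 to 0.168 (*Elovl3*) and -0.94 to 0.083 (*Ppara*). The cause of these changes was not tested.

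The replicate numbers did not pair the mice, as same-numbered libraries had correlations of their deviations from -0.466 to 0.463, over 0.1 in 5 of 15, and 1 of 15 matched its own number best. With the replicate block *Elovl3* was at -1.46 for orchiectomized against control (edgeR BH adjusted P = 0.505) and 0 members were called there. The number of aortas, 5 per group, and their spread (biological coefficient of variation 0.297) limit the precision more than the depth does, as each member had at least 66 counts in every library.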
